A study of Mus musculus with 6 samples.

Results

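The insulin-like growth factor (IGF) axis was followed in mouse hearts that overexpress the miR-302-367 microRNA cluster, and its 10 genes were the ligands Igf1 and Igf2, the receptors Igf1r, Igf2r and Insr, and the binding proteins Igfbp3, Igfbp4, Igfbp5, Igfbp6 and Igfbp7. They were taken by name, and all 10 had a probe of their own among 22180 genes that could be named. The tested hearts, called transgenic here, had the genotype Nkx2.5-Cre; R26R-miR302-367 (3 arrays), in which Cre switches on a copy of the cluster placed at the Rosa26 locus. The control hearts carried Nkx2.5-Cre alone (3 arrays), so Cre is common to both groups. All mice had a mixed C57BL/6 x 129S6 background. Nkx2.5-Cre acts in cardiac progenitors and their descendants, while the arrays were made from total RNA of hearts, which also hold cells that never carried active Cre. The labels give 2 ages, postnatal day 14 in the source name and harvest protocol and E14 in the age field, and the conflict was not resolved here.

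IGF1 and IGF2 are secreted peptides that bind the tyrosine kinase IGF1R and, in the case of IGF2, also the insulin receptor, and the signal runs through IRS adaptors to PI3 kinase, AKT and mTOR and through RAS to MAP kinases. IGF2R has no kinase domain and carries IGF2 to lysosomes for degradation. The binding proteins hold IGFs in blood and tissue, and proteases such as PAPPA release them. In the mouse heart IGF2 from epicardium and endocardium is a mitogen of the embryonic myocardium, and IGF signalling promotes growth of cardiomyocytes after birth.

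The sequences of the overexpressed microRNAs are shown because their seeds (bases 2 to 8, in capitals) are the part that pairs with target transcripts. They are the mature 3p arms in RefSeq (build GRCm38.p6), and 4 of the 5 microRNAs of the cluster had one in that table.
mmu-miR-302b-3p: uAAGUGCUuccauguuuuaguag
mmu-miR-302d-3p: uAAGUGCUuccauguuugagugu
mmu-miR-302c-3p: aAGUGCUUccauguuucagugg
mmu-miR-367-3p: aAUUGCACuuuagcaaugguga
miR-302b-3p and miR-302d-3p share the seed AAGUGCU. RefSeq lists miR-302c-3p without the leading U, so that its bases 2 to 8 read AGUGCUU, a window shifted along the same letters. miR-367-3p has a different seed, AUUGCAC. Target sites in the transcripts of the IGF genes were not analysed here.

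The genotype was checked first. The probes of the 5 microRNA genes were 2.99 to 6.61 higher in transgenic than in control hearts on the log2 scale, and the groups did not overlap for any of them. Array medians lay between 5.45 and 5.54 on the log2 scale, and over all probes the correlation within a group was 0.982 to 0.989. Whether the 3 samples of a group were separate animals is not in the labels, so a p-value covers only the spread among these arrays, and some of it may be technical. By Xist and Y-linked genes each group held both sexes, 1 male and 2 female in transgenic hearts and 2 male and 1 female in control hearts.

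Both ligands and 2 of the 3 receptors rose in transgenic hearts, and 2 of the 5 binding proteins fell. In all 6 of the 10 genes passed an adjusted p of 0.05 (limma, Benjamini-Hochberg over all genes), 4 higher and 2 lower, where 11.1% of all genes passed, 5.35% higher and 5.76% lower. Brighter probes passed more often, and among the 6555 genes at least as bright as the dimmest of the 10 the share was 21.3%, 9.17% higher and 12.1% lower. For 7 of the 10 the groups did not overlap, with all transgenic values above all control values for 5 and below them for 2. The groups did not overlap for 30.9% of all genes (14.2% above and 16.7% below) and 51.6% of those 6555. The median log2 fold change was 0.13 over the 10 genes and -0.03 over all genes. With 10 genes, 1 gene more or less moves the share by a wide margin.

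**Figure D1:**
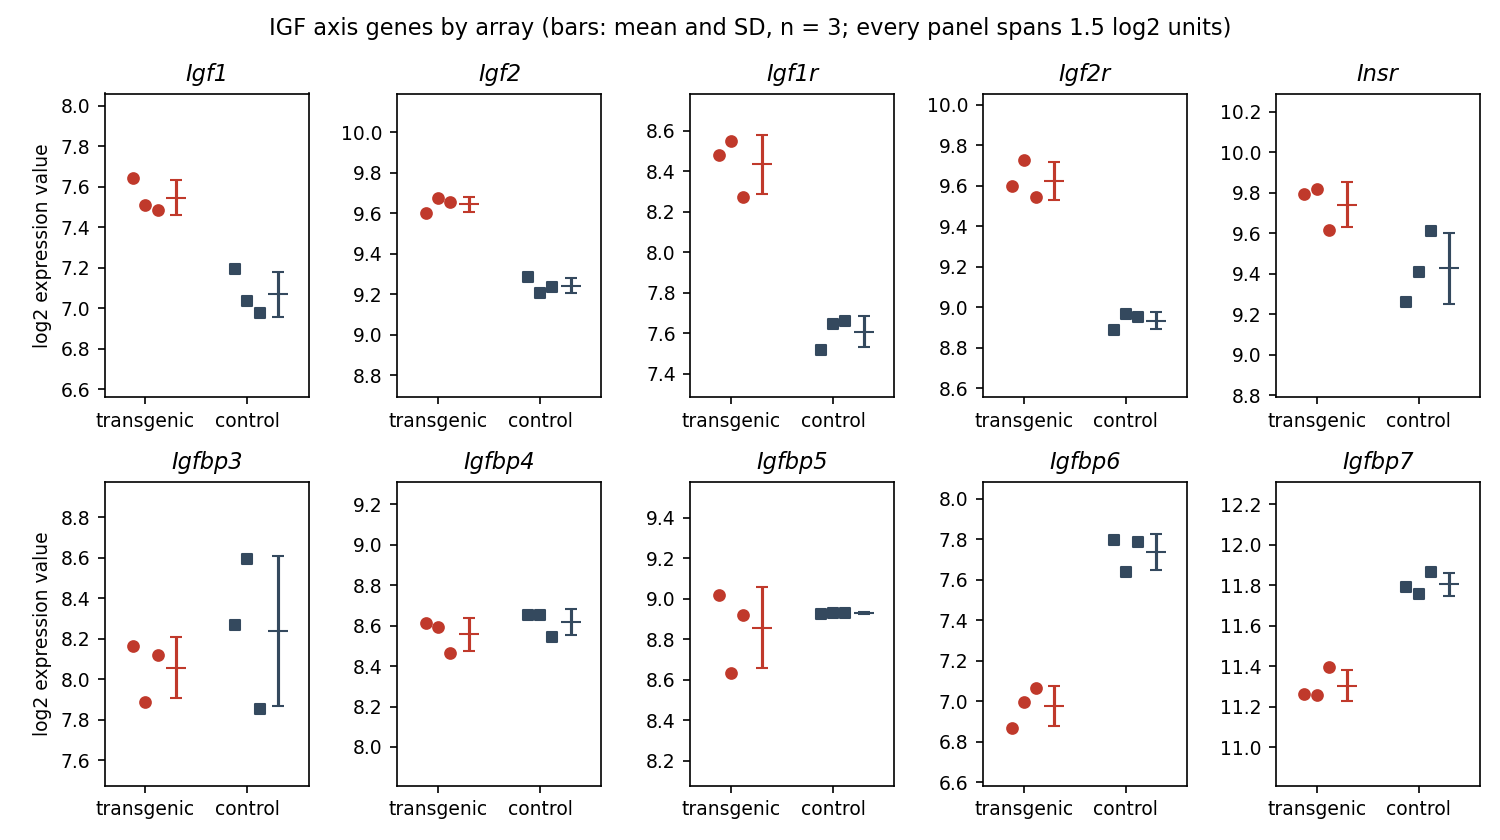
Log2 expression value of each IGF axis gene on the 3 transgenic and 3 control arrays, with the mean and SD of each group beside the points. Igf1, Igf2, Igf1r and Igf2r sit higher and Igfbp6 and Igfbp7 lower on all transgenic arrays, while the groups overlap for Igfbp3, Igfbp4 and Igfbp5.

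Igf1, a ligand that acts both as a hormone from liver and locally, had log2 values of 7.64, 7.51 and 7.48 in transgenic hearts, against 7.19, 7.03 and 6.98 in control hearts. All transgenic values lay above all control values, with a gap of 0.29 between the nearest arrays. The difference was 1.39-fold (95% interval 1.20 to 1.62, adjusted p = 0.0148). The threshold was missed when either of these arrays was left out, at an adjusted p of 0.0642 without transgenic replicate 1 and 0.0506 without transgenic replicate 2. In those fits the calls over all genes also fell, from 2465 to 1217 and 1171. The log2 fold change of Igf1 was 0.40 to 0.54 over all 16 alternatives.

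Igf2, the ligand of fetal growth, had log2 values of 9.60, 9.68 and 9.66 in transgenic hearts, against 9.29, 9.21 and 9.24 in control hearts. Arrays within a group were close (SD 0.039 in each group), and the groups were 0.31 apart at their nearest. The difference was 1.32-fold (95% interval 1.163 to 1.498, adjusted p = 0.0153), and the adjusted p was 0.0674 without transgenic replicate 2 and 0.0543 without transgenic replicate 3. Igf2 is transcribed from several promoters, of which RefSeq lists 4 starts, and the probe does not tell them apart. In the RefSeq table Igf2 also overlaps Mir483, a microRNA gene in one of its introns, and Igf2os on the opposite strand. Neither passed the test, at log2 fold changes of -0.12 for Mir483 (adjusted p = 0.797) and -0.27 for Igf2os (adjusted p = 0.137).

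Igf1r, the kinase receptor that carries the growth signal of both ligands, showed the largest rise of the 10. Its log2 values were 8.48, 8.55 and 8.27 in transgenic hearts, against 7.52, 7.65 and 7.66 in control hearts. The lowest transgenic array was 0.61 above the highest control array, a distance well beyond the SD of 0.14 in transgenic and 0.078 in control hearts. The log2 fold change was 0.83 with an SE of 0.10, which is 1.77-fold (95% interval 1.51 to 2.08, adjusted p = 0.00176). The test also passed with each array left out in turn, with a largest adjusted p of 0.0118, and against a minimum log2 fold change of 0.32 (0.0304).

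Igf2r, the clearance receptor of IGF2, had log2 values of 9.60, 9.73 and 9.54 in transgenic hearts, against 8.89, 8.97 and 8.95 in control hearts. The groups were 0.58 apart and the difference was 1.61-fold (95% interval 1.41 to 1.85, adjusted p = 0.00207). Igf2r is imprinted in the mouse, and Airn, a long noncoding RNA transcribed from inside Igf2r on the opposite strand, silences the paternal copy. Airn was higher as well, at 8.44, 8.59 and 8.33 in transgenic hearts, against 7.59, 7.54 and 7.56 in control hearts (log2 fold change 0.89, SE 0.093, adjusted p = 0.000919). The annotation gives no probe strand, so signal from these overlapping genes cannot be told apart here. Airn was singled out after its values were seen.

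Insr, the insulin receptor, had log2 values of 9.79, 9.82 and 9.62 in transgenic hearts, against 9.26, 9.41 and 9.61 in control hearts. The nearest arrays differed by only 0.0023, and control replicate 3 was at the level of transgenic replicate 3. The log2 fold change of 0.31 (95% interval 0.06 to 0.57) did not pass the test (adjusted p = 0.115), and it passed without control replicate 3 (0.0393). The change of Igf1r exceeded that of Insr by 0.51 on the log2 scale, and the ratio of both within an array separated the groups (two-sided exact permutation p = 0.10, the smallest that 3 arrays against 3 allow, and 0.10 after adjustment over 2 pairs). For the other pair, Igf2r against its ligand Igf2, the difference was 0.29 (exact permutation p = 0.10).

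**Figure D2:**
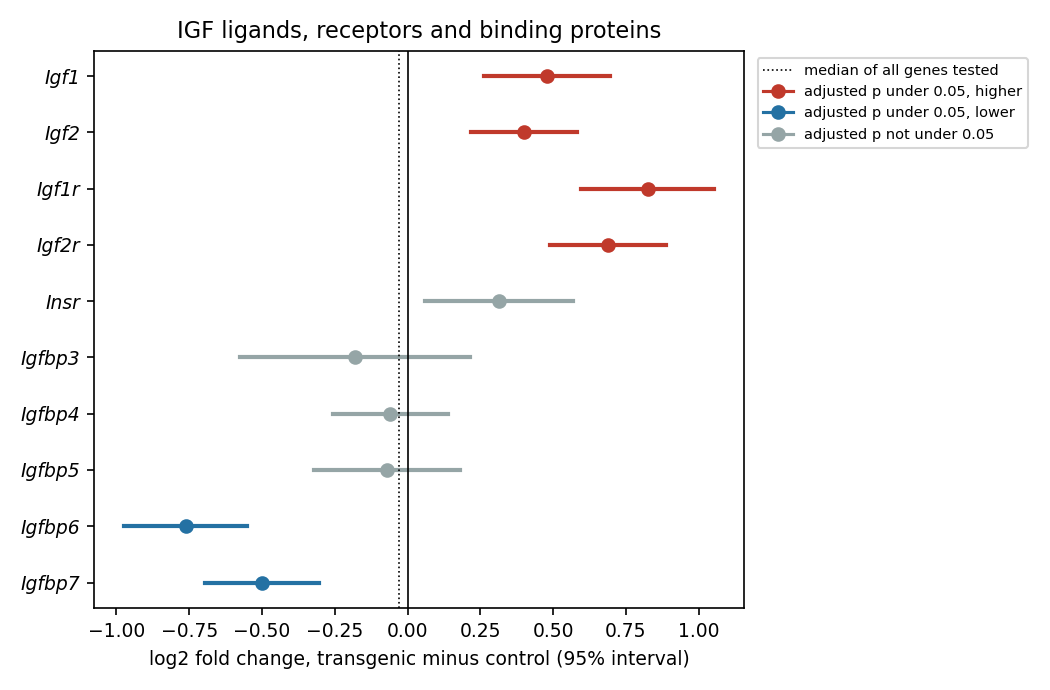
Log2 fold change of transgenic minus control hearts for the 10 IGF axis genes with 95% intervals from limma, the dotted line marking the median of all genes tested. The intervals of the 4 genes called higher and the 2 called lower lie wholly on 1 side of 0, and that of Insr reaches down to 0.06.

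The binding proteins all had negative log2 fold changes, with 2 of 5 called lower and none called higher. Igfbp6, which prefers IGF2 over IGF1, fell to 6.87, 6.997 and 7.07 in transgenic hearts, against 7.80, 7.64 and 7.78 in control hearts. The groups were 0.57 apart, and the log2 fold change was -0.76 with an SE of 0.093, a level 1.70-fold higher in control hearts (adjusted p = 0.00178). This call passed with each array left out in turn, with a largest adjusted p of 0.0111, and against that minimum (0.0384).

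Igfbp7, a low-affinity relative that is secreted by vascular cells and lies in vessel walls, fell to 11.26, 11.26 and 11.39 in transgenic hearts, against 11.79, 11.76 and 11.86 in control hearts. The gap between the groups was 0.36, and the log2 fold change was -0.50 with an SE of 0.086 (adjusted p = 0.00788). Its mean over the arrays lay at the 99.2 percentile of all genes. Polr2b, a neighbour that overlaps it in the RefSeq table, had a value of -0.12 (adjusted p = 0.454).

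The other binding proteins overlapped between the groups. Igfbp3, the main carrier of IGF1 in blood, had log2 values of 8.16, 7.89 and 8.12 in transgenic hearts, against 8.27, 8.59 and 7.86 in control hearts. Its control values spanned more than any other of the 10 genes (SD 0.37), so the interval of its log2 fold change was wide, -0.58 to 0.21 (adjusted p = 0.578). The estimate was -0.0044 without control replicate 2 and -0.37 without control replicate 3.

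Igfbp4, an inhibitor of IGF action that PAPPA cleaves, had values of 8.61, 8.59 and 8.46 in transgenic hearts, against 8.65, 8.65 and 8.54 in control hearts. Igfbp5, a matrix-bound protein that PAPPA and PAPPA2 cleave, had 9.02, 8.63 and 8.92 in transgenic hearts, against 8.92, 8.93 and 8.93 in control hearts. Transgenic replicate 2 alone lay low for Igfbp5, and the sign of its log2 fold change turned without it, from -0.07 over all arrays to 0.04. The 95% intervals ran from -0.26 to 0.14 for Igfbp4 and from -0.32 to 0.18 for Igfbp5. True changes within those bounds are not excluded by these arrays.

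Promoter letters are shown for the pair of genes with the largest rises and the pair called lower. The pairs were picked by these changes, so a like direction within a pair follows from the choice. Each line gives the 250 bases before the RefSeq start in build GRCm38.p6, 5′ to 3′ on the gene's strand, with the GC box GGGCGG or its reverse complement in capitals. The intervals are chr7:67952007-67952256 on the plus strand for Igf1r, chr17:12769707-12769956 on the minus strand for Igf2r, chr15:102143936-102144185 on the plus strand for Igfbp6 and chr5:77408046-77408295 on the minus strand for Igfbp7.
Igf1r: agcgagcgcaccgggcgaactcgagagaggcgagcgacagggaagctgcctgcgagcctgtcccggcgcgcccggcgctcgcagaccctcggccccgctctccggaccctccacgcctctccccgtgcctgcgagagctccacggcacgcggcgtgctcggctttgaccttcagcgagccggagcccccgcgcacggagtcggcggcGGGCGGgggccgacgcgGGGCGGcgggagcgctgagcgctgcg
Igf2r: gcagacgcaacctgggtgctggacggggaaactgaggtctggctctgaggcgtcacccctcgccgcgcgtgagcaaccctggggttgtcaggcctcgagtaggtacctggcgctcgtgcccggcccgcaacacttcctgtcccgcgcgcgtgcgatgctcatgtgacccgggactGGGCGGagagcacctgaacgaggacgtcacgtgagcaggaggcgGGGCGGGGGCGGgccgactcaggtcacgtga
Igfbp6: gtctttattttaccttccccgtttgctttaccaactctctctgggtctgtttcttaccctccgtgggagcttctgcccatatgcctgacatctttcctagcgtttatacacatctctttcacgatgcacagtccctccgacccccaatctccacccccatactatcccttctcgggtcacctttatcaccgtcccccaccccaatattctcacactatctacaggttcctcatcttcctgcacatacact
Igfbp7: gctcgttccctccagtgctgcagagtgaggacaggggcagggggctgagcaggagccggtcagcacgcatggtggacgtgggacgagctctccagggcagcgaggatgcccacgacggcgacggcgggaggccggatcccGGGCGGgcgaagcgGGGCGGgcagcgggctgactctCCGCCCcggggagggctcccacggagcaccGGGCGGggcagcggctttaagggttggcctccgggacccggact
The windows held 2 GC boxes in Igf1r, 3 in Igf2r, 0 in Igfbp6 and 4 in Igfbp7, where 32.7% of the 32851 promoter windows in the table held at least 1. Of the other called genes, Igf1 held 0 in its window, and Igf2 held 0, 0, 1 and 2 in the windows of its 4 starts. Whether boxes go with the direction of change was not tested. CpG pairs numbered 42 in Igf1r, 27 in Igf2r, 7 in Igfbp6 and 26 in Igfbp7, against a median of 6 over all windows. The FoxO core GTAAACA, searched on both strands because Igf1r and Insr are known FoxO targets, was in none of these windows and in 3.17% of all. Promoters were found for 9 of the 10 genes, all but Insr, so the search did not cover Insr.

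Genes around the axis were read from the same test in lists chosen with earlier results of these data known. Over all lists 30 of 113 measured genes (26.5%) were called, 15 higher and 15 lower, against 11.1% of all genes and 21.3% of the 6555 brighter genes. A further 15 listed genes lacked a probe with their symbol alone and were not analysed here. With each array left out in turn, 17 of the 30 passed in every fit. Of the other 13, Braf, Inpp4b, Mest and Ndn missed the threshold whichever array was left out. Irs2 and Spry2 passed only without control replicate 2, Map2k1 only without control replicate 3 and Pappa only without transgenic replicate 3. Ddit4 and Stat5b missed it without replicate 1 or 2 of either group, Eif4ebp1 without any transgenic array or control replicate 1, Igfbpl1 without replicate 2 or 3 of either group, and Pik3ip1 without transgenic replicate 1 or 2. The largest adjusted p of these 13 in such fits was 0.146, for Mest. A sex term cost 8 of the 30 calls, those of Braf, Eif4ebp1, Igfbpl1, Inpp4b, Map2k1, Mest, Ndn and Spry2, and centring the arrays on their medians cost those of Braf, Mest, Ndn and Spry2. Of the called genes described here, Plagl1, Slc2a1, Tbc1d1 and Deptor are also on the array with a dimmer probe. In a test of every probe these had log2 fold changes of 0.07, -0.02, 0.11 and -0.45 and did not pass, while the mean of both probes passed for each.

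Outside the cell, the protease Pappa, which frees IGFs from their binding proteins, was at 6.31, 6.44 and 5.62 in transgenic hearts, against 5.29, 5.28 and 5.50 in control hearts. It rose by 0.77 on the log2 scale (adjusted p = 0.0381), with transgenic replicate 3 close to the controls. Stc2, a stanniocalcin that blocks PAPPA, fell by 0.55 (adjusted p = 0.00905), while its relative Stc1 had a value of -0.36 (adjusted p = 0.0795). Igfbpl1, a binding protein-like gene, rose by 0.75 (adjusted p = 0.029). These were the 3 called among 13 measured genes of this group (23.1%), against 11.1% of all genes. All 3 were dimmer than the dimmest of the 10 IGF genes, so the share of the brighter genes is not a like comparison. Igfbp1 and Igfbp2 had values of -0.05 and -0.12 and did not pass.

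Upstream, growth hormone drives Igf1 through GHR, JAK2 and STAT5. Of 8 measured genes of this arm 1 was called (12.5%, close to the 11.1% of all genes), Stat5b, which was lower by 0.37 (adjusted p = 0.0282). Socs2, a feedback inhibitor, had a value of 0.50 (adjusted p = 0.051), Cish, another STAT5 target, had -0.51 (adjusted p = 0.0612), and Ghr had -0.15 (adjusted p = 0.375).

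At the receptor, Irs2, a docking protein that FoxO induces, fell to 7.28, 7.33 and 7.31 in transgenic hearts, against 8.23, 7.58 and 8.11 in control hearts (log2 fold change -0.66, adjusted p = 0.0277). Control replicate 2 was much nearer to the transgenic arrays than the other two. Grb10, an imprinted adaptor that restrains IGF1R and INSR, rose to 9.91, 9.80 and 9.91 in transgenic hearts, against 9.23, 9.23 and 9.34 in control hearts (adjusted p = 0.00322). The other 12 of 14 measured adaptors did not pass, Irs1 among them at -0.11 (adjusted p = 0.438). That is 14.3% called, against 11.1% of all genes and 21.3% of the brighter genes.

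Below the receptor, the share of called genes was 14.3% in the PI3 kinase and Akt list and 21.4% in the mTOR list. In the Ras and MAP kinase list it was 30%. The share was 11.1% over all genes and 21.3% over the 6555 brighter genes. Of 14 PI3 kinase and Akt genes, Pik3ip1, an inhibitor of PI3 kinase, rose by 0.56 and Inpp4b, a phosphoinositide phosphatase, fell by 0.34. Akt1 and Akt2 had values of -0.16 and -0.19 and did not pass. Of 14 mTOR genes 2 fell, and both restrain mTOR. Deptor, which binds the kinase, fell by 0.57 (adjusted p = 0.00575) and the stress-induced Ddit4 fell by 0.91 (adjusted p = 0.0224). Eif4ebp1, a repressor of translation that mTOR switches off, rose by 0.40 (adjusted p = 0.0259). Of 10 Ras and MAP kinase genes Braf and Spry2, an inhibitor of the pathway, rose by 0.36 and 0.38, and the kinase Map2k1 fell by 0.43.

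FoxO factors are held in the cytoplasm when AKT is active. Of 18 measured genes of the list, 5 fell and 0 rose, and all 5 are reported targets rather than the factors. That is 27.8% called, where 5.76% of all genes and 12.1% of the brighter genes were called lower. Bcl6, a transcriptional repressor, fell to 6.35, 6.14 and 6.22 in transgenic hearts, against 7.97, 7.96 and 7.99 in control hearts. Pdk4, an inhibitory kinase of pyruvate dehydrogenase, fell by 1.29, Fbxo32, the muscle ubiquitin ligase atrogin-1, fell by 0.81, Cat, catalase, fell by 0.67, and Sod2, the mitochondrial superoxide dismutase, fell by 0.52. Other factors regulate these genes too. The list median was -0.10, and Foxo1 itself had a value of -0.06 (adjusted p = 0.793), Trim63, the partner of Fbxo32 in muscle wasting, -0.08 (adjusted p = 0.644) and Txnip 0.38 (adjusted p = 0.158).

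**Figure D3:**
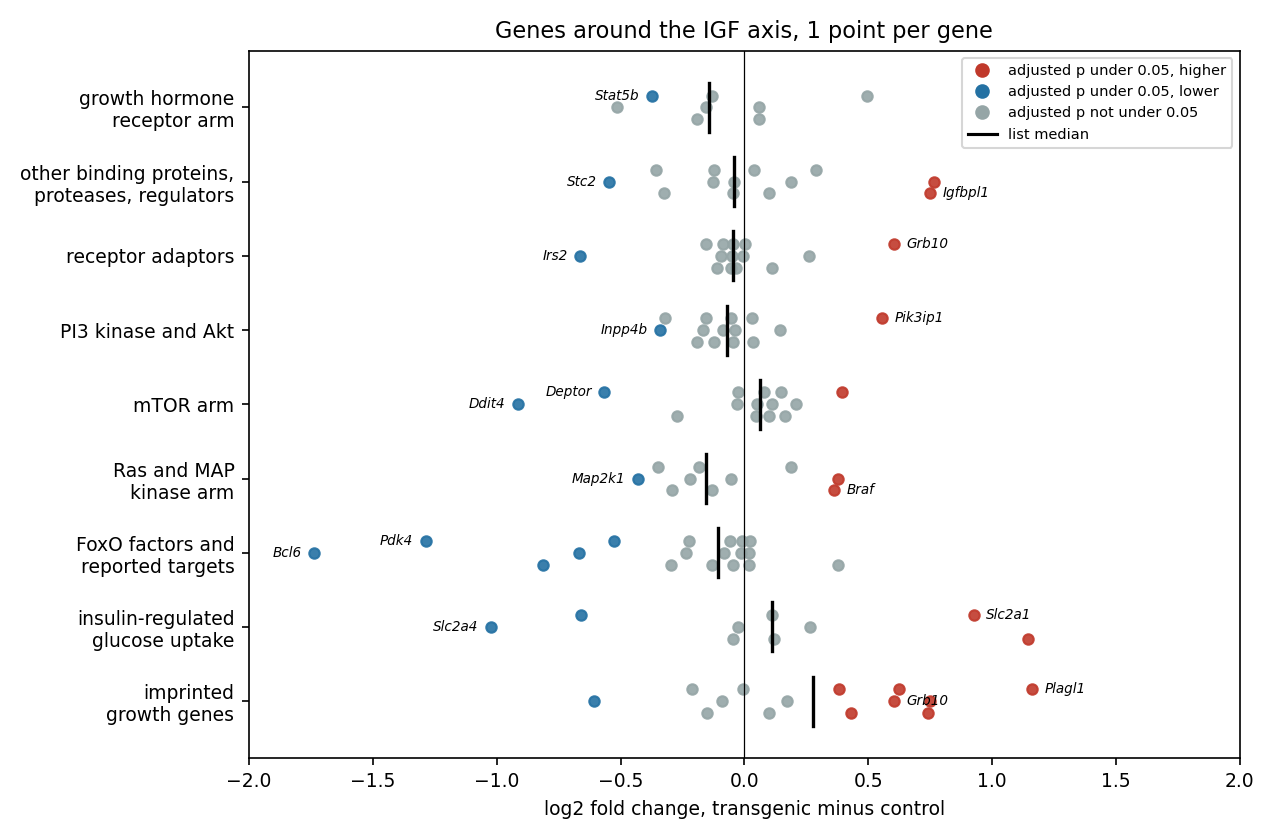
Log2 fold change of transgenic minus control hearts for each measured gene of 9 lists around the IGF axis, coloured by the result of the limma test, with the list median as a black bar. The called FoxO targets all lie below 0 and 7 of the 8 called imprinted genes lie above it, while the adaptors and the PI3 kinase genes cluster near 0.

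Of 9 measured genes of insulin-regulated glucose uptake 2 rose and 2 fell (44.4%, against 11.1% of all genes and 21.3% of the brighter genes). Slc2a4, the insulin-responsive transporter GLUT4, fell to 9.04, 9.11 and 9.13 in transgenic hearts, against 9.99, 10.22 and 10.15 in control hearts (adjusted p = 0.000429). Slc2a1, the basal transporter GLUT1 that the fetal heart uses, rose by 0.93 (adjusted p = 0.00102). Tbc1d1, a regulator of GLUT4 traffic, rose by 1.15, whereas its relative Tbc1d4, an AKT substrate, had a value of -0.03 (adjusted p = 0.9). Hk2, the insulin-responsive hexokinase, fell by 0.66, and Hk1 had a value of 0.26 (adjusted p = 0.0998).

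Igf2, Igf2r and Grb10 belong to a set of imprinted genes that act on fetal growth and decline together after birth. Of 14 measured genes of that list, which leaves out Igf2 and Igf2r, 7 rose and 1 fell (57.1%, against 11.1% of all genes), with a median log2 fold change of 0.28. Plagl1, a zinc finger factor that binds the Igf2 and H19 region in the mouse, rose to 8.97, 9.10 and 8.74 in transgenic hearts, against 7.58, 7.83 and 7.91 in control hearts (log2 fold change 1.16, SE 0.13, adjusted p = 0.00103). Rian, a noncoding RNA of the Dlk1 and Meg3 cluster, rose by 0.74 and Slc38a4, an amino acid transporter, by 0.63. Peg3, Mest and Ndn rose by 0.75, 0.43 and 0.38. Gatm, which makes the precursor of creatine and is imprinted in placenta, fell by 0.61 (adjusted p = 0.00481). Dlk1 and Meg3 had values of 0.10 and 0.17 and did not pass. Grb10 is in this list and among the adaptors. Without any single array 5 genes of the list were called higher.

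Several of these genes are made by cell types other than cardiomyocytes, and the markers of some of those cells were called lower. In these whole-heart samples fewer cells of a type and less RNA per cell cannot be told apart. Of all genes 5.76% were called lower and 5.35% higher, and of the 6555 brighter genes 12.1% and 9.17%. The marker counts here and in the next paragraph stand beside these shares. Igfbp7 is abundant in endothelium, and of 15 endothelial markers 10 fell and 0 rose (66.7% called). Their summed signal was 12.85 to 12.97 on the log2 scale in transgenic hearts, against 13.26 to 13.34 in control hearts, and the median log2 fold change of -0.39 stood beside -0.50 for Igfbp7. The count of endothelial markers called lower was 2 without transgenic replicate 1, transgenic replicate 2 or control replicate 1, and 5 without transgenic replicate 3 or control replicate 2. Of 11 smooth muscle and pericyte markers 4 fell and 1 rose (45.5% called). Their summed signal was 13.74 to 13.84 in transgenic hearts, against 14.18 to 14.30 in control hearts. Without transgenic replicate 1 or transgenic replicate 3, 2 were called lower. The mean log2 value of that list, in which bright probes weigh less, overlapped between the groups, at 8.98 to 9.15 in transgenic hearts, against 9.14 to 9.28 in control hearts. The part of either in the fall of Igfbp7 was not tested.

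Igf1 is made in heart by macrophages and fibroblasts. Of 11 macrophage markers 7 fell and 0 rose (median -0.59). That is 63.6% called, where 5.76% of all genes were called lower. The summed signal of these markers was 9.96 to 10.09 in transgenic hearts, against 10.67 to 10.80 in control hearts, the opposite direction to Igf1. Of 11 fibroblast markers 1 rose and 0 fell (median 0.16), 9.09% called against 11.1% of all genes and 21.3% of the brighter genes. Their summed signal was 13.43 to 13.52 in transgenic hearts, against 13.42 to 13.57 in control hearts, so that the groups overlapped. That riser, Postn, missed the threshold whichever array was left out, and also with renewed quantile normalization, centred arrays or a sex term. Igfbp6 is made by fibroblasts and mesothelium. The 7 epicardial and mesothelial markers had 1 called higher, Tbx18, and 1 lower, Msln (28.6% called, against 11.1% of all genes). Their median was -0.37. Their summed signal was 9.77 to 10.02 in transgenic hearts, against 9.995 to 10.19 in control hearts, again with overlap. The call of Msln was lost whichever array was left out. Both measured Schwann cell markers fell, Sox10 by 0.55 (adjusted p = 0.00913) and S100b by 0.46 (adjusted p = 0.0206). S100b missed the threshold without any 1 of the transgenic arrays or control replicate 1. Of 11 cardiomyocyte markers 1 fell and 0 rose (median -0.03), 9.09% called against 11.1% of all genes and 21.3% of the brighter genes. Their summed signal was 16.005 to 16.035 in transgenic hearts, against 16.054 to 16.083 in control hearts, so that the groups did not overlap. All 7 proliferation markers rose, with a median of 0.85, where 5.35% of all genes were called higher. The part of these shifts in the IGF values was not tested. No marker was at 0, since the deposited log2 values have a background floor above 0.

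**Figure D4:**
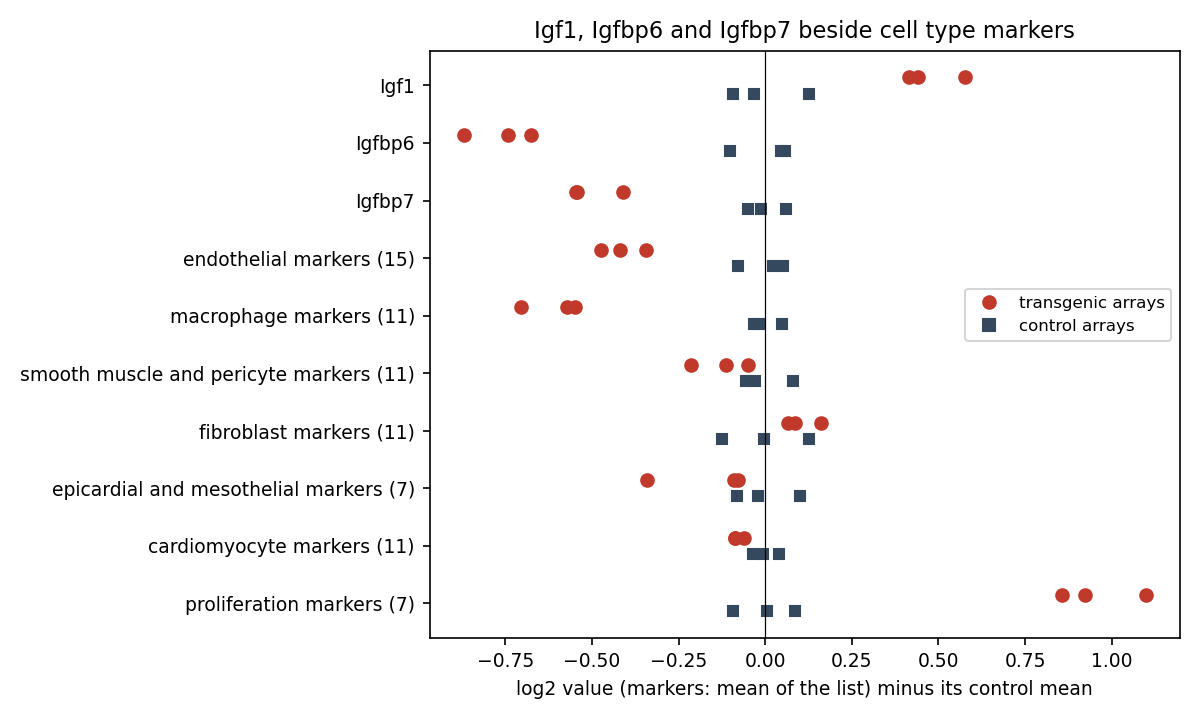
Igf1, Igfbp6 and Igfbp7 and the mean log2 value of each marker list on every array, each set against its own control mean, with transgenic arrays as circles and control arrays as squares. Endothelial and macrophage markers sit lower on all transgenic arrays, fibroblast markers overlap, and Igf1 sits higher.

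Genes whose values ran closest to those of Igf1r and Igfbp6 were found by the mean absolute difference of centred log2 values over the 6 arrays. For Igf1r they were Hmcn1, an extracellular matrix protein (0.024), Tmeff1, a transmembrane protein (0.031), and Ntn1, the guidance molecule netrin 1 (0.036). For Igfbp6 they were Tufm, the mitochondrial translation elongation factor (0.030), Tcp11l2 (0.032) and Prss55, a serine protease (0.039). Over 6 arrays in 2 groups, a difference of like size between the groups is enough to bring genes close by this measure.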

How the data were processed

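Total RNA (100 ng per sample) was primed with poly(T), amplified and labelled with biotin, per the labels' protocols. The authors deposited a log2 expression value for each probe on each array. The tools oligo, RMA and limma are named in the submitters' processing notes, without versions. Genome build and probe filters: not given in the sources used here. Detection calls and scan dates were not used. Of 41345 probes, 23521 had 1 gene symbol in the platform annotation, 1814 several and 16010 none, and only the first were named. Per gene the probe with the highest mean over the 6 arrays was kept, which gave 22180 genes, and each of the 10 IGF genes had 1 such probe. RefSeq (GRCm38.p6) gave overlapping gene names and sequences.

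Transgenic and control arrays were compared on all genes with limma 3.58.1 in R 4.3.3 (lmFit, eBayes, two-sided, no covariates, no filter on dim probes). P-values were Benjamini-Hochberg adjusted over all genes, and the threshold was 0.05. The number of arrays limits the precision. Steps were tested on simulated data.

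The genes and lists were chosen with earlier results of these data known. Named genes were the 10 members, the up to 4 members of each list with the smallest p, the cluster's microRNA genes and, for likeness, 3 genes each for the largest rise and fall, passing over symbols of predicted or clone type. Others were chosen after their values were seen. Alternatives covered dim genes, probes per gene, normalization, variance model, array weights, a replicate block, sex, a minimum log2 fold change of 0.32 and each array left out. Replicate numbers did not pair the arrays, with correlations of deviations between same-numbered arrays of 0.016, -0.13 and 0.014.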

Additional observations from a re-analysis of the deposited data

How the results depend on the processing

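Of the 10 IGF genes, Igf1r and Igfbp6 were called in all 16 alternatives, Igf2r and Igfbp7 in 15, missing only the test against a minimum log2 fold change of 0.32 (adjusted p = 0.064 and 0.686), and Igf1 and Igf2 in 13 each, missing that minimum fold and 2 fits that left out a transgenic array each. With that minimum fold 1 gene was called higher and 1 lower, and 367 of all genes. Leaving out each array in turn gave 2 to 5 genes called higher, 2 lower in each fit, and 1171 to 2249 genes in all, so single arrays move the background too. The low counts were 1217 without transgenic replicate 1, 1171 without transgenic replicate 2 and 1378 without control replicate 1. Insr passed in 3 alternatives, with array weights, with an intensity trend and robust variance and without control replicate 3. Igfbp3 and Igfbp4 passed in none, and Igfbp5 turned sign in 1 of them, at 0.041 without transgenic replicate 2, with -0.15 to 0.041 over the fits that left out 1 array. With the replicate block, 4 genes were called higher, 2 lower and 1996 genes in all, and no call of the 10 genes changed, while 9 of the 30 calls in the lists around the axis were lost. A sex term left 4 higher and 2 lower. The estimates of the 6 called genes kept their sign in all 16 alternatives. Among the smaller list counts, calls of single genes came and went between alternatives, and the cause was not tested.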
